A study of Helianthus annuus with 24 samples.

Results

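Nectaries of sunflower (Helianthus annuus) line 412, labelled low in nectar production, were compared with nectaries of line 452, labelled medium. These were 6 of the 24 RNA-seq samples of a study of nectaries from 7 lines and of leaf, with 3 samples in each line. The pair was chosen by measured values, because these 2 lines of different nectar class had the most alike nectary profiles. Of 38457 contigs tested, 2425 (6.31%) were called different between lines 412 and 452, the fewest of any pair of lines with different classes. The median correlation of log2 values between their samples was 0.847. The next pairs of different class were 412 with 456 (4050 contigs, 10.5%) and 441 with 452 (4456 contigs). The only pair with fewer calls was 412 with 441 (2298 contigs, 5.98%), both labelled low. That order rested on replicate 3 of line 452, described below. With it left out, lines 412 and 452 had 2316 calls, the fewest of any pair, and lines 412 and 441 had 3655. The number of calls is therefore a description of the choice, and the account below is of which contigs still differed.

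Lines 412 and 452 were interspecific crosses of H. annuus whose other parent is not given in the sources used here, kept at 23 °C in a greenhouse under 16 h of daily light. Nectaries were cut by hand from mature florets of plants about 40 days old, between 4 and 8 h after dawn on several days, and each sample held about 50 nectaries from different plants. The other groups, used here for their levels, were low line 441, medium line 456, high lines 434 and 467, the maintainer line ER, and leaf. The sample labels give leaf as line 434 and the series' design text as line ER, so its genotype is uncertain here. Low and medium class are represented here by 1 line each, so class and line cannot be told apart. The p-values reflect only how far such pools of nectaries vary within lines, taken over all nectary lines together. In such bulk samples, fewer cells of a type and less RNA per cell cannot be told apart. The contigs come without sequences, lengths or genome positions, so values are compared between samples of 1 contig and not between contigs.

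In the disc florets of sunflower the nectary is a ring of tissue around the base of the style. In Arabidopsis and related plants, nectary cells make sucrose from starch reserves and phloem sugar with sucrose-phosphate synthases. They export it through the SWEET9 uniporter, and cell-wall invertase cleaves it outside the cell. CRABS CLAW (CRC) is needed for an Arabidopsis nectary to form, and MYB21 acts in jasmonate signalling as the flower matures.

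Values are upper-quartile-normalized units, rounded to whole numbers, as the authors deposited them. Changes are log2(value + 1) of line 412 minus line 452, fitted with limma over the 21 nectary samples. The fit gives each contig 1 spread, shared by all nectary lines. A call means a p below 0.05 after Benjamini-Hochberg adjustment over all contigs tested. Estimated depth was 12.73 to 16.09 M reads in the 412 samples and 9.46 to 14.11 M in the 452 samples, so 1 read was worth 0.678 to 1.33 units. Replicate 3 of line 452 stood apart. It had 3903 contigs at 0, against 1291 to 1577 in the other 5 samples, and its median correlation with its own line was 0.8, against 0.952 to 0.963 within line 412. In 1080 contigs it was at 5 or below while replicates 1 and 2 of line 452 were at 50 or above. Of these 1080, 4 were called higher in line 412 and 6 lower. Replicate 1 of line 452 was alone at 50 or above in another 101 contigs, of which 61 were called higher in line 412 and 1 lower. The part of either sample in the results was not tested, so counts are given with and without replicate 3, and calls that 1 sample decided are named. Replicates 1 and 2 of line 452 also had lower correlations with their line (0.849 and 0.863) than the 412 samples. Fits with 1 sample left out keep the shared spread, so they do not test unequal spread between lines. With the 6 samples alone, 40 of the 75 contigs described kept their result, called or not called. The other 35 were all among the 68 called over the 21 nectary samples, and they lost their call. With sample weights all 75 kept their result.

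Line 412 was higher in 1751 contigs (4.55% of those tested) and lower in 674 (1.75%). At an unadjusted p under 0.05, 7406 contigs (19.3%) differed. The median change over all contigs was 0.23, and it was 0.12 after rescaling by median ratios and -0.04 without replicate 3 of line 452. Without that sample 1407 contigs were higher in line 412 and 909 lower, including 1247 of the 1751 and 522 of the 674. Higher contigs therefore made up 72.2% of the calls with it and 60.8% without it. Without replicate 1 of line 452 there were 3405 higher and 826 lower contigs, without replicate 2 of line 412 there were 1078 and 413, and without replicate 3 of line 412 there were 1137 and 443. Called changes were large: the median size was 2.31 among higher contigs and 1.88 among lower ones. An Arabidopsis match was listed for 566 of the higher contigs (32.3%) and for 310 of the lower (46.0%), against 46.1% of all contigs tested.

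**Figure D1:**
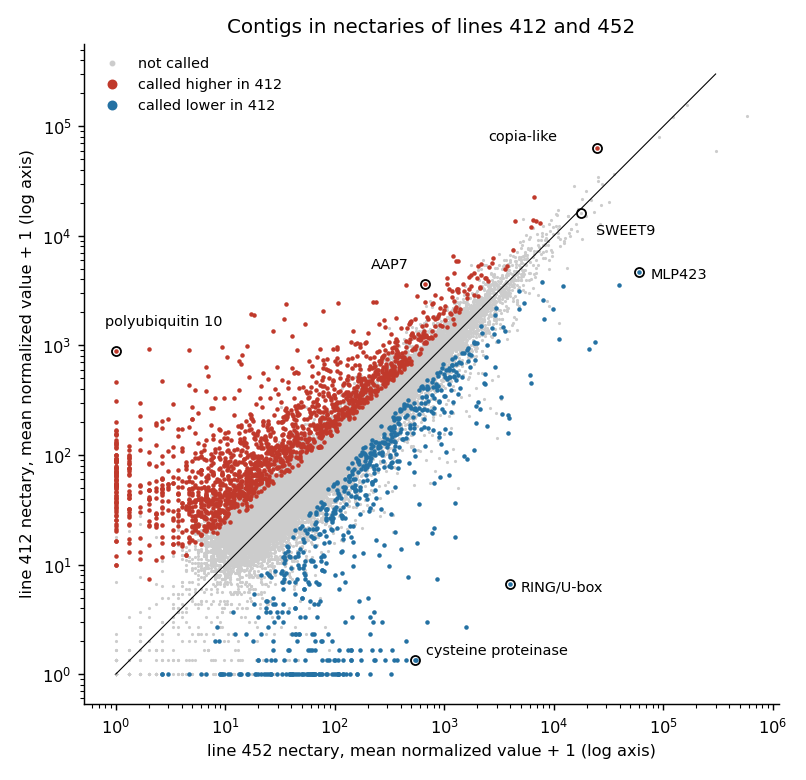
Mean normalized value of each tested contig in line 412 nectaries (vertical log axis) against line 452 nectaries (horizontal log axis), each with 1 added; red points were called higher in line 412 (1751), blue points called lower (674), and grey points not called. Most contigs lie near the diagonal, while called contigs reach the axes where 1 of the lines was at or near 0.

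Such a difference can have line 412, line 452 or both at the end of the range of the 7 lines. Among the 1751 contigs higher in line 412, only line 412 had the highest mean of the 7 lines in 512 (29.2%), and only line 452 the lowest in 489 (27.9%). Both held in 208 (11.9%), and neither in 542 (31.0%). Among the 674 lower contigs, only line 412 was the lowest in 204 (30.3%), only line 452 the highest in 213 (31.6%), both in 70 (10.4%) and neither in 187 (27.7%). Without replicate 3 of line 452, contigs in which only line 452 was the lowest made up 20.8% of those higher in line 412. All these contigs were chosen for a gap between lines 412 and 452, which favours either line at an end of the range. The shares were not computed over all contigs tested, so whether they are particular to called contigs was not tested.

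The main sugar-export and nectary genes were not called between the lines. SWEET9 (contig Helianthus17324) was at 13632, 18238 and 16480 units in line 412, against 24873, 18186 and 10255 in line 452. The 412 values lie within the range of line 452, with a change of -0.06 ± 0.62 (SE; limma adjusted p = 0.965). SWEET9 averaged 22580 units in low line 441, 45400 in medium line 456, 135100 in high line 434, 39820 in high line 467 and 166600 in ER, and 70.7 in leaf. Lines 412 and 452 thus had the lowest SWEET9 means of the 7 nectary lines.

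Cell-wall invertase CWINV2 (Helianthus23193), which splits exported sucrose, was at 38331, 34030 and 31534 units in line 412 and at 34847, 28391 and 12445 in line 452. The groups overlap, and the change of 0.58 ± 0.37 was not called (adjusted p = 0.385). In the other low-medium pair, CWINV2 averaged 42450 units in line 441, against 6703 in line 456 (change 2.57, adjusted p = 4.83e-05). The difference between the 2 changes had an adjusted p of 0.018.

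None of the other nectar genes was called, and SWEET10 and SUS4 were far apart among the samples of line 452. SWEET10 (Helianthus10294), a relative of SWEET9, was at 8554, 20641 and 13911 units in line 412, against 10247, 4421 and 988 in line 452 (change 1.93, SE 0.86, adjusted p = 0.232). Sucrose synthase SUS4 (Helianthus24021) was at 3921, 6361 and 6008 units in line 412, against 7141, 2614 and 1518 in line 452 (0.80, adjusted p = 0.414). In both contigs replicate 1 of line 452 was the highest and replicate 3 the lowest of its line. Sucrose-phosphate synthase SPS1F (Helianthus37345) was close in the lines, at 1924, 2518 and 2490 units in line 412 and 1940, 2068 and 1579 in line 452 (0.31, adjusted p = 0.437). Neither MYB21 (Helianthus32958; 0.43, adjusted p = 0.612) nor the abundant CRC contig (Helianthus1659; 0.40, adjusted p = 0.207) was called. SUS4 averaged 37400 units in high line 434 and 26920 in high line 467, and MYB21 13960 and 7598, above both lines compared here.

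**Figure D2:**
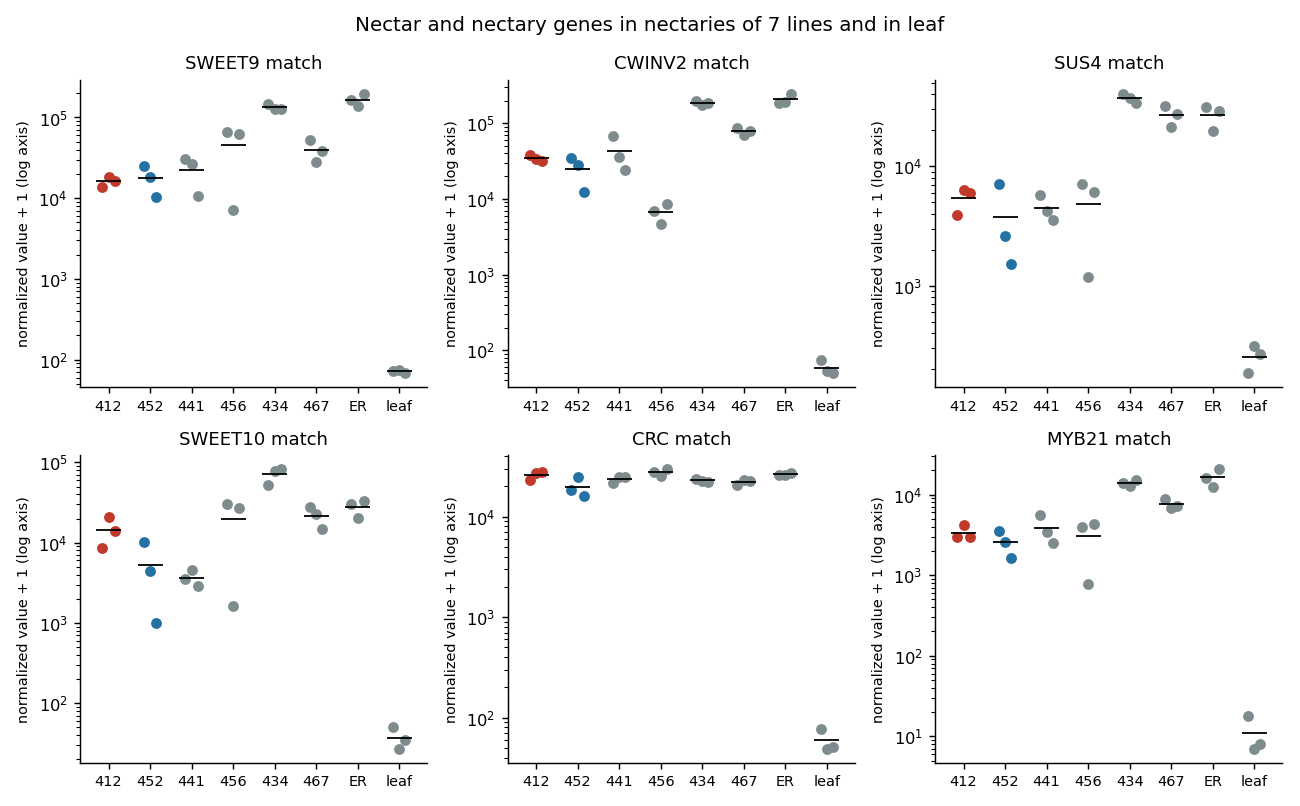
Normalized value plus 1 (log axis) of nectar and nectary genes in every sample of the 7 nectary lines and leaf, with 1 point per sample. SWEET9 and CWINV2 points of lines 412 and 452 overlap, between 10255 and 38331 units, below those of high line 434 and of ER.

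Over all contigs tested limma called 4.55% higher and 1.75% lower in line 412, and each list count below is to be read beside these shares. In the gene lists for these functions, 21 contigs of sucrose synthesis and cleavage were tested and limma called 0, while 3 had an unadjusted p under 0.05. Without replicate 3 of line 452 it also called 0, and without replicate 1 of line 452 it called 3 higher. Of 33 sugar transporter contigs, 3 were called higher in line 412 and 0 lower (2 and 0 without replicate 3 of line 452), with a median change of 0.35, against 0.23 over all contigs (0.07 and -0.04 without that replicate). The calls were 2 contigs of the sugar/proton symporter homologue STP7 and 1 of SWEET7. STP7 contig Helianthus29820 was at 139, 291 and 148 units in line 412, against 24, 8 and 38 in line 452 (change 3.15 ± 0.40, adjusted p = 3.96e-05). STP7 contig Helianthus29821 was at 35, 71 and 54 units in line 412, against 4, 0 and 2 in line 452 (4.40 ± 0.52, adjusted p = 1.43e-05). Every 412 sample was above every 452 sample in both, and both stayed called when any 1 of the 6 samples was left out. Between lines 441 and 456 the STP7 changes were -1.25 (adjusted p = 0.0451) and -0.70 (adjusted p = 0.45).

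SWEET7 (Helianthus33780), a sugar uniporter, was at 516, 327 and 272 units in line 412, against 152, 136 and 150 in line 452 (1.29 ± 0.37, adjusted p = 0.0422). The groups do not overlap, but the call was lost when any 1 of the 6 samples was left out (adjusted p 0.0501 to 0.177), and the sum over the 3 SWEET7 contigs was not called (1.25, adjusted p = 0.23).

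Starch genes gave 3 contigs higher in line 412 and 1 lower among 45 tested (8.89% called, against 6.31% of all contigs), with a median change of 0.14. The numbers were 1 and 2 without replicate 3 of line 452 and 7 and 1 without its replicate 1. APS1 (Helianthus17268), the small subunit of the ADP-glucose pyrophosphorylase that supplies starch synthesis, was at 348, 397 and 393 units in line 412, against 307, 200 and 142 in line 452. Its change was 0.88 ± 0.21 (adjusted p = 0.0137), and the call was lost without replicate 2 or 3 of line 412 or replicate 3 of line 452 (0.0637, 0.0582 and 0.0555). Over 3 APS1 contigs the sum was not called (0.67, adjusted p = 0.069). The larger starch differences lay in single contigs of genes whose other contigs made up for them. The beta-amylase BAM1 contig Helianthus13166 was at 132, 129 and 124 units in line 412 and listed at 0 in all 3 samples of line 452 (adjusted p = 1.79e-09). All BAM1 contigs summed to a mean of 474.7 units in line 412 and 472 in line 452. The starch-branching enzyme SBE2.1 contig Helianthus12785 was at 1, 0 and 0 units in line 412, against 95, 133 and 89 in line 452 (adjusted p = 7.3e-07), while SBE2.1 contigs summed to means of 404 and 354.7 units in lines 412 and 452.

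Flower regulators were called in 1 direction. Of 29 contigs of floral organ and carpel regulators, 3 were called higher in line 412 and 0 lower (10.3% called, against 6.31% of all contigs). Without replicate 3 of line 452 limma called 0, and without replicate 1 of line 452 it called 7 higher. The median change of this list was 0.64, and 0.37 without replicate 3 of line 452, and 14 contigs had an unadjusted p under 0.05. The 3 were a contig of AP1, a MADS-box factor of floral meristems and outer floral organs, and 2 of FIL, a YABBY factor of abaxial cell identity. AP1 (Helianthus21482) was at 5855, 5761 and 5201 units in line 412, against 4237, 2617 and 1348 in line 452 (1.18 ± 0.30, adjusted p = 0.0212), with no overlap. The AP1 call was lost without any single 412 sample (0.0542 to 0.0806) or without replicate 3 of line 452 (change 0.75, adjusted p = 0.0901). For FIL, Helianthus11664 changed by 1.00 (adjusted p = 0.0403) and Helianthus20543 by 0.84 (adjusted p = 0.0311). Both FIL calls held only without replicate 1 of line 452, and otherwise the adjusted p lay between 0.0518 and 0.166 with 1 sample left out. The sum over the 4 FIL contigs was called (0.82, adjusted p = 0.00537).

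A second, rarer CRC contig (Helianthus36845) was the single call among 13 contigs of nectary and flower maturation factors, and without replicate 3 of line 452 this list had 0 limma calls. It was at 167, 229 and 229 units in line 412, against 132, 47 and 39 in line 452 (1.71 ± 0.46, adjusted p = 0.0327). The call was lost in 5 of the 6 fits with 1 sample left out (0.0539 to 0.124) and held without replicate 1 of line 452. Over both CRC contigs the sum was not called (0.41, adjusted p = 0.168).

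Clock genes gave 4 contigs higher and 1 lower in line 412 among 42 tested (11.9% called, against 6.31% of all contigs). The numbers were 3 and 1 without replicate 3 of line 452 and 8 and 1 without its replicate 1. The median change was 0.64 (0.10 without replicate 3 of line 452). All 4 higher contigs matched PRR7, a pseudo-response regulator that represses morning clock genes. The PRR7 contig with the largest change, Helianthus5106, was at 86, 118 and 124 units in line 412, against 40, 48 and 1 in line 452 (2.78 ± 0.75, adjusted p = 0.032). Its change was 1.28 without replicate 3 of line 452 and stayed called, while without 1 of the 412 samples the adjusted p was 0.0627 to 0.112. Summed over its 13 contigs, PRR7 averaged 7826 units in line 412 and 4628 in line 452 (0.79, adjusted p = 0.0136). A contig of GIGANTEA (GI, Helianthus13505), an evening clock protein, was at 0 in all 3 samples of line 412 and at 37, 72 and 79 units in line 452 (adjusted p = 4.02e-10). The GI sum over its 8 contigs did not pass the test (0.29, adjusted p = 0.491). Samples were cut over a window of hours on several days, and the part of cutting time in these values was not tested.

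Hormone genes were called in single contigs or pairs of contigs. In the gibberellin list, 2 contigs were higher and 1 lower among 19 tested (15.8% called, against 6.31% of all contigs). The numbers were 2 and 1 without replicate 3 of line 452 and 5 and 1 without its replicate 1. The higher contigs were both matched to KAO1, an ent-kaurenoic acid oxidase that makes a gibberellin precursor. KAO1 contig Helianthus20665 was at 1049, 879 and 879 units in line 412, against 309, 0 and 0 in line 452 (7.11 ± 1.38, adjusted p = 0.00297). KAO1 contig Helianthus20666 was at 341, 439 and 461 units in line 412, against 180, 0 and 0 in line 452 (adjusted p = 0.00526). Only replicate 1 of line 452 held KAO1 units in this line, and without that replicate line 452 was listed at 0. Helianthus20665 averaged 657.7 units in low line 441 and 361.3 in ER, but 0.33 in medium line 456, 1.67 in line 434, 0 in line 467 and 15.3 in leaf, so its level was on or off among lines. KAO1 was also called higher in line 441 than in line 456 (9.03, adjusted p = 9.42e-05).

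The auxin list held 1 call among 32 contigs, a lower one (0 higher and 1 lower without replicate 3 of line 452, 2 and 1 without its replicate 1). GH3.9 (Helianthus5461), of the family that conjugates auxin to amino acids, was at 4, 0 and 3 units in line 412, against 28, 72 and 102 in line 452 (-4.47 ± 0.59, adjusted p = 4.96e-05). GH3.9 was called with any 1 sample left out and lower in line 441 than in line 456 as well (-5.03, adjusted p = 3.85e-06). In the jasmonate list 0 of 40 contigs were higher and 1 lower (2 and 1 without replicate 1 of line 452). That contig, of LOX2 (Helianthus17875), a lipoxygenase of jasmonate synthesis, changed by -2.54 (adjusted p = 0.0186), but the sum over 6 LOX2 contigs changed by 0.18 (adjusted p = 0.726). Its call was lost without replicate 2 or 3 of line 412 or replicate 2 of line 452 (0.064, 0.107 and 0.0579). In the terpene and isoprenoid list, 1 contig was higher and 1 lower among 25 (0 and 2 without replicate 3 of line 452). The lower one was a rare contig of DXR (Helianthus36609), of the plastid isoprenoid pathway, at 1, 2 and 5 units in line 412, against 17, 43 and 14 in line 452 (adjusted p = 0.00218). Over 5 DXR contigs the sum was not called (-0.31, adjusted p = 0.124).

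Some contigs with many units in line 452 were called lower in line 412. MLP423 (Helianthus356), a protein of the major latex protein family, was at 6255, 820 and 6943 units in line 412, against 91576, 55135 and 34827 in line 452. Line 452 was above line 412 in every sample, on average 13.0-fold (change -4.09 ± 0.92, adjusted p = 0.00948), and the call was lost without replicate 2 of line 412 (0.0755). MLP423 averaged 66310 units in high line 434, 29990 in ER and 15020 in high line 467, against 1620 in low line 441 and 7256 in medium line 456. The sum over its 5 contigs was called (-3.95, adjusted p = 0.00331).

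The oleate desaturase FAD2, which makes linoleic from oleic acid in membrane lipids, differed in 2 of its 4 tested contigs. FAD2 contig Helianthus315 was at 1002, 235 and 1992 units in line 412, against 42915, 17424 and 11523 in line 452 (-4.72 ± 0.90, adjusted p = 0.00267), a 22.3-fold higher mean in line 452. FAD2 contig Helianthus7163 was at 936, 156 and 1705 units in line 412, against 45765, 10512 and 6472 in line 452 (-4.53, adjusted p = 0.0231), and its call was lost without replicate 2 of line 412 (0.154) or replicate 1 of line 452 (0.064). The other FAD2 contigs made up most of the FAD2 sum in line 412, and the sum was not called, with means of 17180 units in line 412 and 59560 in line 452 (-1.56, adjusted p = 0.129).

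A DUF538 protein (Helianthus37763) and a Nod19-like stress protein (Helianthus467) had the same sample pattern. The DUF538 contig was at 4840, 696 and 5227 units in line 412, against 48827, 38632 and 31696 in line 452 (-3.91, adjusted p = 0.0339), and was no longer called without replicate 2 of line 412 or without any single 452 sample (0.0528 to 0.212). The Nod19-like contig was at 1205, 383 and 1826 units in line 412, against 18876, 7578 and 6838 in line 452 (-3.39, adjusted p = 0.0148; 0.107 without replicate 2 of line 412). Replicate 2 of line 412 was the lowest of its line in 49 of the 94 contigs called lower with a mean of at least 1000 units in line 452 (52.1%), replicate 1 in 18 and replicate 3 in 27. Among the 151 contigs called higher with a mean of at least 1000 units in line 412, replicate 1 of line 412 was the lowest of its line in 83 (55.0%) and replicate 3 of line 452 the lowest of its line in 85 (56.3%). These shares were not computed over all contigs with such means, so whether they are particular to called contigs was not tested.

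Of the 6 contigs with the most units among those called higher in line 412, not scaled to length, 2 kept their call with any 1 sample left out, TCTP and a copia-like contig. TCTP (Helianthus33905), a translationally controlled growth protein, was at 13877, 11345 and 15835 units in line 412, against 5413, 4082 and 3757 in line 452 (1.64 ± 0.25, adjusted p = 0.000309). Line 452 had the lowest TCTP mean of the 7 lines. A copia-like retrotransposon contig (Helianthus29221) was at 50486, 72260 and 65322 units in line 412, against 17401, 34990 and 21725 in line 452 (1.39 ± 0.27, adjusted p = 0.00318). A boron transporter-like contig (Helianthus12155, UniRef match BOR1) was at 15927, 27873 and 23402 units in line 412, against 9613, 6262 and 4078 in line 452 (1.80 ± 0.41, adjusted p = 0.0103). Its call was lost without replicate 2 of line 412 (0.0639) or replicate 3 of line 452 (0.0506). The remaining 3 were contigs of an O-methyltransferase, ubiquitin 11 and a DCD-domain protein. The O-methyltransferase OMT1 (Helianthus29223) was at 11235, 16163 and 14134 units in line 412, against 8100, 6883 and 4355 in line 452 (1.13, adjusted p = 0.048), and held its call only without replicate 1 of line 452 (otherwise 0.0561 to 0.197 with 1 sample left out). The OMT1 sum over 3 contigs was not called (1.02, adjusted p = 0.0616). Ubiquitin 11 (Helianthus28035) changed by 1.09 (adjusted p = 0.0178) and lost its call without replicate 2 or 3 of line 412 or replicate 3 of line 452 (0.0627 to 0.0764). Over its 7 contigs the ubiquitin 11 sum was not called, with means of 73750 units in line 412 and 68030 in line 452 (0.13, adjusted p = 0.77). The DCD-domain contig (Helianthus4621) changed by 0.81 (adjusted p = 0.0352) and lost its call without any single sample (0.0526 to 0.115). In all 6 contigs every 412 sample was above every 452 sample.

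**Figure D3:**
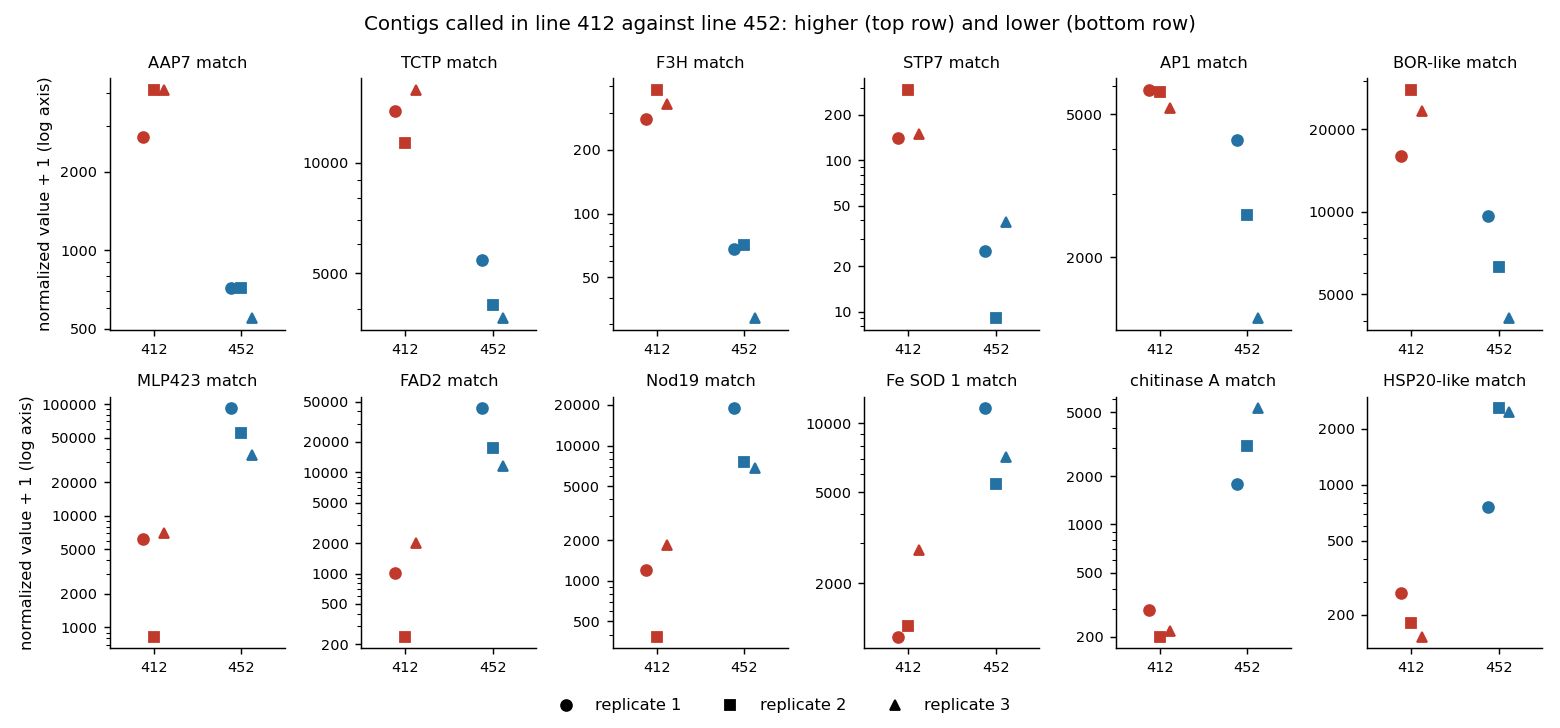
Normalized value plus 1 (log axis) in each sample of line 412 (left in each panel) and line 452 (right) for contigs called higher in line 412 (top row) and lower (bottom row), with a marker shape per replicate. The top panels show 412 points above 452 without overlap. In the bottom row MLP423, FAD2 and Nod19 show replicate 2 of line 412 below its line, as in MLP423 (820 against 6255 and 6943 units). In FSD1 replicate 1 of line 412 was the lowest (1162 against 1298 and 2798 units).

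The clearest difference in a transporter was in AAP7, an amino acid permease homologue. AAP7 contig Helianthus25662 was at 2726, 4115 and 4113 units in line 412, against 713, 719 and 547 in line 452 (2.45 ± 0.17, adjusted p = 9.36e-09), 5.54-fold higher. AAP7 contig Helianthus25655 was at 67, 109 and 133 units in line 412, against 11, 10 and 4 in line 452 (3.52, adjusted p = 7.78e-05). Both contigs were called with any 1 sample left out, and 3 of 4 AAP7 contigs were called, with a sum of 3947 units on average in line 412 and 809 in line 452 (2.27, adjusted p = 9.21e-08). Line 412 stood above the other lines: the main contig averaged 1291 units in line 441, 1528 in 456, 1083 in 467, 677 in 434 and 900.7 in ER. Over 162 amino acid and peptide transporter contigs, 10 were higher in line 412 and 5 lower (9.26% called, against 6.31% of all contigs), with a median change of 0.23. The numbers were 5 and 9 without replicate 3 of line 452 and 20 and 5 without its replicate 1.

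Pectin-modifying enzymes gave 6 contigs higher in line 412 and 0 lower among 51 tested (11.8% called, against 6.31% of all contigs). The numbers were the same without replicate 3 of line 452. Without replicate 1 of line 452 there were 9 and 1. Their median change was 0.50, and 0.01 without replicate 3 of line 452. Pectin methylesterases remove methyl groups from cell-wall pectin. PME3 contig Helianthus5811 was at 702, 714 and 866 units in line 412, against 252, 196 and 179 in line 452 (1.87 ± 0.24, adjusted p = 3.3e-05). The PME2 contig Helianthus5813 was at 119, 203 and 250 units in line 412, against 61, 46 and 12 in line 452 (2.45 ± 0.43, adjusted p = 0.00129). Neither group overlapped, and both calls held with any 1 sample left out. For both contigs line 452 was the lowest of the 7 lines, while lines 441 and 456 were alike, at 760.7 and 904.3 units for PME3. The sum over 4 PME3 contigs was not called (0.79, adjusted p = 0.117).

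In the phenylpropanoid and flavonoid list, 1 contig was higher and 1 lower in line 412 among 34 (1 and 3 without replicate 3 of line 452, 8 and 0 without its replicate 1). Flavanone 3-hydroxylase (Helianthus37566), which leads to dihydroflavonols, was at 280, 383 and 327 units in line 412, against 67, 70 and 31 in line 452 (2.61 ± 0.38, adjusted p = 0.000164). It was called with any 1 sample left out, and line 412 had the highest mean of the 7 lines. Chalcone isomerase (Helianthus21505), the step before it, was at 148, 123 and 120 units in line 412, against 356, 306 and 172 in line 452 (-1.03 ± 0.26, adjusted p = 0.0201). That call was lost without replicate 2 or 3 of line 412 or replicate 1 or 2 of line 452 (0.0565 to 0.0851).

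Among defence and stress genes, chitinase A (Helianthus19087), which cleaves fungal chitin, was at 295, 199 and 216 units in line 412, against 1776, 3075 and 5266 in line 452 (-3.71 ± 0.38, adjusted p = 2.07e-06). The mean was 14.2-fold higher in line 452, and the call held with any 1 sample left out. Chitinase A was also lower in line 441 (373 units) than in line 456 (3188 units; -3.14, adjusted p = 6.07e-06). Among the high lines it averaged 119.7 units in 434 and 9758 in 467, so it did not follow nectar class over the lines. It was 1 of 2 lower calls, with 0 higher, among 13 pathogenesis-related and chitinase contigs (0 higher and 1 lower without replicate 3 of line 452).

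Heat shock proteins gave 1 contig higher and 4 lower among 92 (5.43% called, against 6.31% of all contigs), with a median change of 0.00. Without replicate 3 of line 452 the numbers were 1 and 8 and the median change -0.34. A class I small heat shock protein (HSP20 family, Helianthus3522) was at 260, 179 and 151 units in line 412, against 759, 2574 and 2467 in line 452 (-3.13 ± 0.75, adjusted p = 0.0147), and was not called without replicate 2 or 3 of line 412 (0.0586 and 0.0673). Another HSP20-family contig (Helianthus37829) was at 263, 306 and 215 units in line 412, against 1155, 792 and 876 in line 452 (-1.84, adjusted p = 0.0121; 0.0632 without replicate 3 of line 412). The disaggregase HSP101 (Helianthus2208) was at 97, 88 and 77 units in line 412, against 641, 219 and 238 in line 452 (-1.88, adjusted p = 0.0368), a call lost without any single 412 sample or replicate 1 of line 452 (0.0759 to 0.128).

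The main contigs of iron superoxide dismutases, plastid enzymes that remove superoxide, were called lower in line 412. FSD1 (Helianthus30868) was at 1162, 1298 and 2798 units in line 412, against 11643, 5438 and 7096 in line 452 (-2.24 ± 0.50, adjusted p = 0.00869; 0.0503 without replicate 2 of line 412). FSD2 (Helianthus30871) was at 1988, 2959 and 5437 units in line 412, against 20824, 11256 and 4371 in line 452 (-1.67, adjusted p = 0.049). The FSD2 groups overlap, and the call was lost without replicate 1 or 2 of either line (0.0787 to 0.191). A rarer FSD2 contig (Helianthus30870) went the other way, at 104, 180 and 358 units in line 412, against 39, 11 and 0 in line 452 (4.60, adjusted p = 0.00214), and the sum over both was not called (-1.58, adjusted p = 0.0702). Of 51 peroxidase and superoxide dismutase contigs 2 were higher and 3 lower (2 and 2 without replicate 3 of line 452, 5 and 1 without its replicate 1), the higher ones including a class III peroxidase (Helianthus6509) at 563, 464 and 434 units in line 412, against 32, 107 and 147 in line 452 (2.59, adjusted p = 0.0204). The peroxidase call was lost without any single 412 sample or replicate 1 of line 452 (0.0574 to 0.0714), and the change was -9.27 between lines 441 and 456.

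Genes of green tissue were far below their leaf level in both lines. The photosynthesis list summed to 11956 to 15438 units in line 412 samples and 7295 to 11560 in line 452 samples, higher in line 412 without overlap. Its mean in leaf was 2269000. Of its 68 contigs 1 was called higher and 3 lower (2 and 4 without replicate 3 of line 452), 5.88% against 6.31% of all contigs. The list's median change was 0.38, and 0.49 without replicate 3 of line 452, with 16 contigs at an unadjusted p under 0.05. The Rubisco contigs that follow went against this direction. The Rubisco small subunit contig (Helianthus41497) was at 38, 41 and 46 units in line 412, against 127, 311 and 133 in line 452 (-2.04, adjusted p = 0.0131), and at 285900 in leaf. Rubisco activase (Helianthus32272) was at 44, 35 and 37 units in line 412, against 108, 284 and 201 in line 452 (-2.22, adjusted p = 0.0195). The photosystem I subunit PSI-L contig (Helianthus9916) went the other way, at 162, 246 and 276 units in line 412, against 21, 37 and 44 in line 452 (2.74, adjusted p = 0.0128). These 3 calls were lost in some fits with 1 sample left out: Rubisco small subunit without replicate 2 of either line (0.0503 and 0.0538), activase without replicate 2 or 3 of line 412 or 2 of line 452 (0.0615 to 0.0792), and PSI-L without replicate 2 or 3 of line 412 (0.057 and 0.0626). The sum over the PSI-L contigs was not called (1.33, adjusted p = 0.094).

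Regulators and receptors gave mostly single contigs. Of 128 receptor-like kinase contigs, 11 were higher in line 412 and 2 lower (10.2% called, against 6.31% of all contigs). The numbers were 10 and 1 without replicate 3 of line 452 and 20 and 3 without its replicate 1. A malectin-domain kinase (Helianthus20099) was at 141, 214 and 237 units in line 412, against 96, 0 and 0 in line 452 (adjusted p = 0.00427), again with replicate 1 alone above 0 in line 452. An S-locus lectin kinase (Helianthus37636) was at 145, 269 and 145 units in line 412, against 16, 26 and 4 in line 452 (3.76 ± 0.71, adjusted p = 0.00226), and the opposite change was called between lines 441 and 456 (-5.36, adjusted p = 1.76e-05). The sum over the 11 contigs of this match was not called (0.80, adjusted p = 0.106). In the AP2 and ethylene response factor list 4 contigs were higher and 3 lower among 42 (3 and 2 without replicate 3 of line 452). ERF1 (Helianthus14594), an ethylene-response activator, was at 29, 6 and 7 units in line 412, against 496, 177 and 162 in line 452 (-4.36 ± 0.85, adjusted p = 0.00303). The 3 ERF1 contigs together averaged 600 units in line 412 and 686.7 in line 452 and were not called (-0.27, adjusted p = 0.775). An AP2-domain contig (Helianthus10822) was at 68, 66 and 114 units in line 412, against 0, 1 and 0 in line 452. A WRKY40 contig (Helianthus674), of a stress-responsive WRKY factor, was at 0 in all 412 samples and at 19, 60 and 60 units in line 452, yet the 3 WRKY40 contigs together were not called (0.32, adjusted p = 0.734). In the MYB list limma called 0 of 46 contigs, with 6 at an unadjusted p under 0.05; without replicate 3 of line 452 it called 1 and without its replicate 1 it called 2.

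Ribosomal protein contigs gave 3 higher and 10 lower among 353 (3 and 11 without replicate 3 of line 452), with a median change of -0.14; without replicate 1 of line 452 there were 8 and 9. Of 100 histone and cyclin contigs, 0 were higher and 1 lower (3 and 1 without replicate 1 of line 452). Of 26 aquaporin contigs limma called 0, with 6 at an unadjusted p under 0.05, and 6 were called higher without replicate 1 of line 452. Vesicle trafficking, the machinery by which cells secrete proteins and wall material, gave 8 higher and 3 lower among 268 (4.1% called, against 6.31% of all contigs). The numbers were the same without replicate 3 of line 452 and 13 and 4 without its replicate 1. Cytochrome P450 contigs gave 7 higher and 4 lower among 68, against 5 and 8 without replicate 3 of line 452 and 10 and 3 without its replicate 1.

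**Figure D4:**
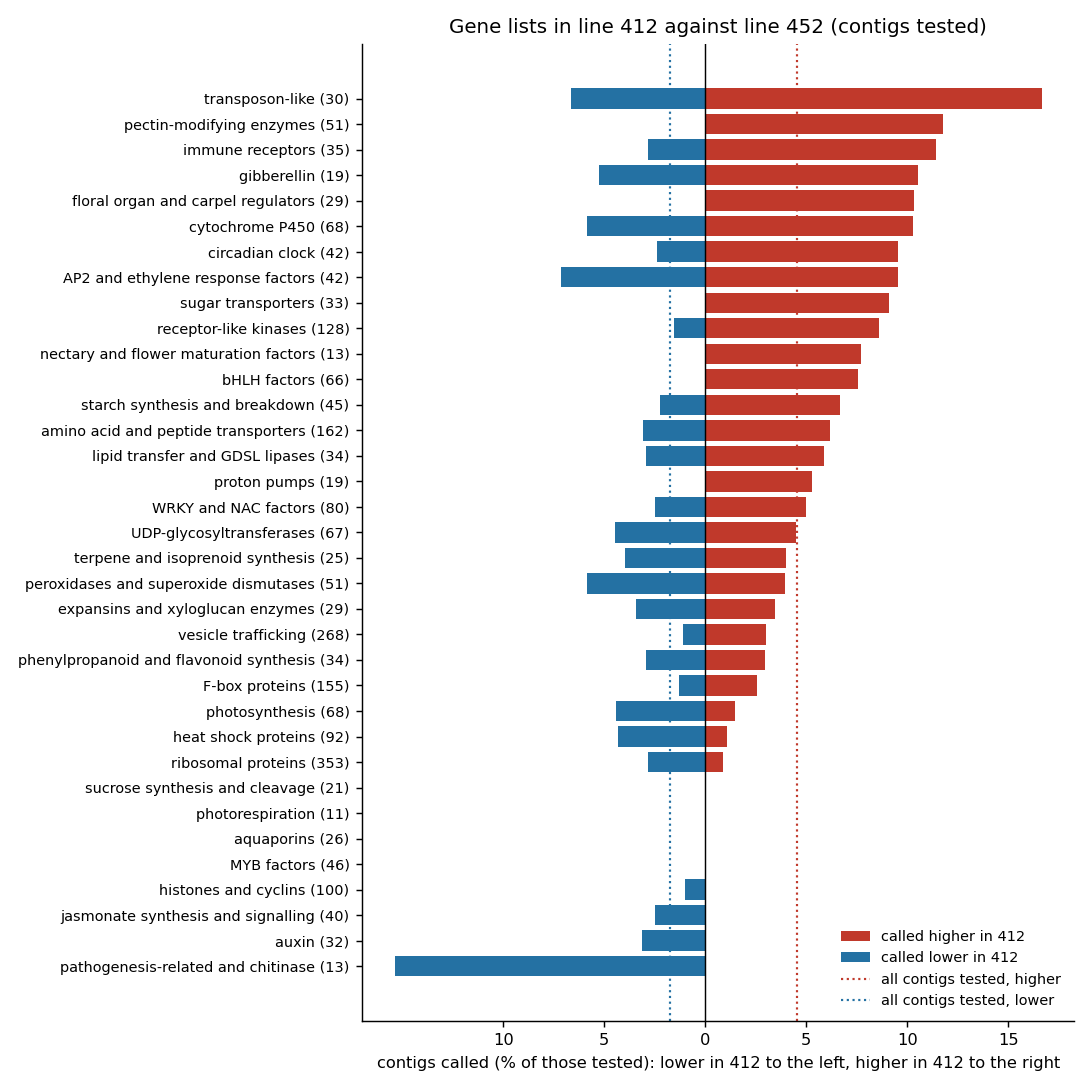
Share of the tested contigs of each gene list that was called higher in line 412 (bars to the right) or lower (bars to the left), with the number tested in brackets; dotted lines mark the shares over all contigs tested, 4.55% higher and 1.75% lower. Pectin-modifying enzymes had 6 of 51 contigs higher and 0 lower, and ribosomal proteins 3 of 353 higher and 10 lower.

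Markers of other cell types were compared as lists. Of 6 pollen contigs, all matched to the receptor kinases ANX1 and ANX2, limma called 0 (1 at an unadjusted p under 0.05), with sums of 2681 to 3529 units in line 412 and 2040 to 2824 in line 452, and no contig matched VGD1, PPME1, AGP6, AGP11, MS1 or DYT1. Of the 3 petal and stamen contigs limma called 0, none with an unadjusted p under 0.05 (sums of 1386 to 1530 units in line 412, 1098 to 1501 in line 452). Carpel, style and ovule markers, which include CRC, summed to 38938 to 48742 units in line 412 and 25460 to 38070 in line 452, without overlap. Nearly all of that sum was CRC (means of 26090 units in line 412 and 19920 in line 452) and AG (18680 and 12680). STK, at a few units and not tested, went the other way (3 and 10.3). All 4 tested contigs of this list had an unadjusted p under 0.05, and 1 was called, higher (0 without replicate 3 of line 452). The median change was 0.72, and no contig matched SHP1, SPT, HEC1 or STY1. The 8 stomatal contigs, all matched to the kinase OST1, gave 1 lower call, with sums of 1487 to 1636 units in line 412 and 1669 to 2025 in line 452, and no contig matched SLAC1, FAMA or SPCH. Nectary markers summed to 79519 to 84925 units in line 412 and 41625 to 82864 in line 452, where replicate 3 was the lowest, against 204.3 in leaf, and 1 of 7 contigs was called, the rare CRC contig above, and no contig matched CWINV4. The part of cell makeup in the differences was not tested.

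Many of the largest differences were of contigs present in 1 line and near 0 in the other. With thresholds set after the values were seen, 82 contigs were at 50 or above in all 3 samples of line 412 and at 5 or below in all 3 of line 452, and 47 were the reverse. Of these, 63 of the 82 and 37 of the 47 had neither an Arabidopsis nor a UniRef match. Among the 9 of the 47 with a match shared by other contigs, the sum over the match lay within 1.5-fold between lines in 8, and in 7 of 14 among the 82. For polyubiquitin 10, a contig (Helianthus28038) was at 861, 818 and 971 units in line 412 and 0 in all 3 samples of line 452 (adjusted p = 6.47e-12). Polyubiquitin 10 contigs together averaged 12030 units in line 412 and 16370 in line 452, the other way round. In line 452, the contigs of a 20S proteasome subunit (Helianthus38850; 72, 112 and 169 units), alpha-SNAP2 (Helianthus32163; 169, 208 and 473) and the abscisic acid receptor component RCAR1 (Helianthus4607; 200, 213 and 396) were on, while line 412 was at 3 units or below. Their sums differed by -0.21, -0.04 and -0.07, and 0 of the 3 sums were called.

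Elsewhere the difference covered the whole match or nearly so. A MATE efflux carrier (Helianthus29552), of a family that exports metabolites, was at 637, 689 and 565 units in line 412, against 8, 7 and 2 in line 452 (6.71 ± 0.50, adjusted p = 2.87e-08), and the MATE sum was called (3.32, adjusted p = 5.09e-06). An aspartyl protease (Helianthus31305) was at 826, 733 and 769 units in line 412, against 7, 5 and 16 in line 452 (6.38 ± 0.57, adjusted p = 3.68e-07; sum 6.52). An FKBP-type prolyl isomerase contig (Helianthus36033), the only tested contig of its match, was at 133, 147 and 177 units in line 412 and 0 in line 452. On the other side, a RING/U-box protein (Helianthus36506), of a family of ubiquitin ligases, was at 4, 1 and 12 units in line 412, against 2387, 5039 and 4540 in line 452 (-9.55 ± 0.64, adjusted p = 6.82e-09; sum -4.43, adjusted p = 1.94e-06). A cysteine proteinase (Helianthus2355), the sole contig of its match, was at 0, 1 and 0 units in line 412, against 533, 580 and 518 in line 452 (-8.75 ± 0.91, adjusted p = 2.65e-06). The proteinase averaged 534.7 units in line 441 and 845.3 in line 434, against 23.3 in line 456. These 5 contigs were called with any 1 sample left out. A copia-like contig (Helianthus871) was at 7, 9 and 4 units in line 412, against 356, 515 and 519 in line 452 (-5.96, adjusted p = 2.07e-08), opposite to the abundant copia-like contig of the same match.

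**Figure D5:**
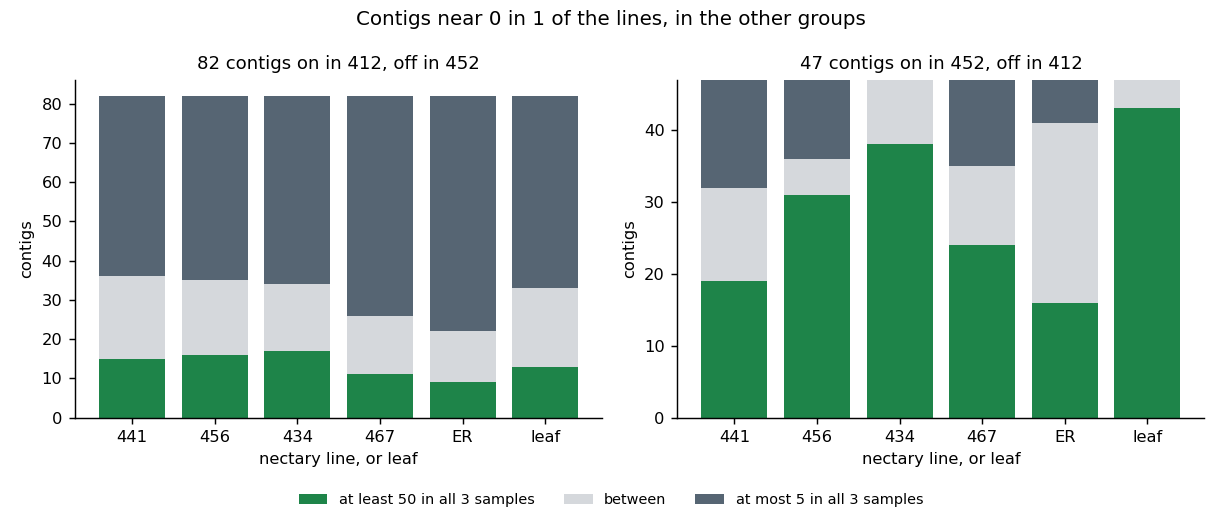
For the 82 contigs on in line 412 and off in line 452 (left) and the 47 contigs on in line 452 and off in line 412 (right), the number at 50 units or above in all 3 samples (green), at 5 or below in all 3 (dark grey) and between (light grey) in each nectary line and in leaf. The 82 were off in most other groups, as in 60 in ER, whereas the 47 were on in 38 in line 434 and in 43 in leaf.

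The presence of these contigs in the other groups differed between the sets. The 82 contigs of line 412 were on in 15 cases in line 441, 16 in 456, 17 in 434, 11 in 467, 9 in ER and 13 in leaf. The 47 contigs of line 452 were on in 19 cases in line 441, 31 in 456, 38 in 434, 24 in 467, 16 in ER and 43 in leaf. The unannotated contig Helianthus328 had 1, 1 and 1 units in line 412, against 497, 449 and 395 in line 452 (adjusted p = 1.47e-15), and was lost in line 412 alone, with means of 337 units or more in every other group. With 129 such contigs, lines 412 and 452 were among the pairs with the fewest. Lines 452 and ER had 109, and lines 412 and 434 had 623. Line 452 also had low numbers with lines 441 (131), 456 (208) and 467 (258), and 286 with line 434. Lines 412 and 441 had 268. A contig split among the samples of a line cannot count as on or off there, and line 452 had sets of 1080 and 101 such contigs. The part of that split in these numbers, including the 82 against 47, was not tested.

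The other low-medium pair, lines 441 and 456, shares no sample with lines 412 and 452. It had 5474 calls (14.2%), 2812 higher in line 441 (7.31%) and 2662 lower (6.92%). Of the 1751 contigs higher in line 412, 382 (21.8%) were also called higher in line 441 and 274 (15.6%) were called the opposite way. Their sign was the same in 54.0%, against 55.0% of all contigs with a higher value in line 441. Of the 674 lower contigs, 170 (25.2%) were called the same way and 54 (8.01%) the opposite way, with the same sign in 65.9%, against 44.7% lower over all contigs. The shared calls were 13.6% of those higher in line 441 and 6.39% of those lower. A change that differed between the pairs was called for 3850 contigs (10%), including 888 (50.7%) of the higher and 275 (40.8%) of the lower contigs of line 412. That difference holds the same 412-452 change by which these contigs were called, so the 50.7% and 40.8% describe that choice.

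Among the contigs called the same way in both pairs, Helianthus29330, without annotation, was at 283, 308 and 344 units in line 412 and 0 in all 3 samples of line 452, and averaged 252.3 in line 441 and 0 in line 456. Helianthus23863, also without annotation, was at 2259, 2434 and 2740 units in line 412, against 713, 2 and 0 in line 452 (adjusted p = 0.0148). Replicate 1 of line 452 was far above its line, and the call was lost without replicate 2 or 3 of either line (0.052 to 0.0671). Helianthus19317, without annotation, was at 922, 966 and 915 units in line 412, against 1, 2 and 0 in line 452. Among the largest changes of unannotated contigs, Helianthus28947 was at 280, 264 and 348 units in line 412, against 0, 2 and 0 in line 452 (adjusted p = 2.39e-08). In the lower direction, Helianthus33679, without annotation, was at 1, 1 and 3 units in line 412, against 1268, 1280 and 2170 in line 452, and averaged 6 in line 441 and 1183 in line 456. Some contigs were reversed between the pairs. Helianthus42290, without annotation, was at 0, 0 and 1 units in line 412, against 283, 483 and 883 in line 452, and averaged 312 in line 441, against 0 in line 456. A heavy-metal-domain contig (Helianthus14304) was at 190, 224 and 219 units in line 412, against 4, 2 and 0 in line 452, and averaged 507.3 in line 456. The sum over the 5 contigs of its match was not called between lines 412 and 452 (0.34, adjusted p = 0.314). With these 2 lines and classes alone, a link to nectar production was not tested.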

How the data were processed

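Per the labels' protocols, TruSeq RNA v2 libraries of nectaries and leaf were sequenced. Each contig has a deposited expression score that the authors normalized by the upper quartile, per the file headers; the values are whole numbers. The sources used here name no aligner, assembler or counting tool. Samples were mapped through column names, and 16 columns of means and SDs were not used. Arabidopsis matches came from the deposited table, and symbols were assigned from the matched loci.

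The scale was log2(value + 1). A contig entered the fit if it averaged at least 10 over the 21 nectary samples, and limma 3.58.1 (R 4.3.3) estimated 1 mean per line, with a variance trend and two-sided tests. The constant added lowers the changes of low contigs. Contigs were also summed by match. Reads per sample were estimated from the spacing of low values, and low depth limits low contigs; the values were not modelled as counts. The procedure was checked on simulated data in which all samples had the same spread and none stood apart. That check therefore does not reach unequal spread between lines. Python 3.11.15, numpy 2.4.6, pandas 2.3.3 and matplotlib 3.10.9 were used.

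Named contigs were the 12 largest increases and 12 largest decreases with a match, no overlap and a higher mean of at least 100, the 6 most abundant called each way, up to 3 per gene list, 7 nectar genes, the 4 largest each way called likewise in 441 against 456 and the 3 largest each way without annotation. The text describes 75 of the 128. The lines, lists and named contigs were chosen with earlier results of these data known. Alternatives were another constant, filter or scaling, sample weights, robust variances, a replicate block, the 6 samples alone, sums by match and leaving out each sample.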

Additional observations from a re-analysis of the deposited data

Results flagged for a closer look

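For 37 of the 75 contigs described, the 412-452 change differed from the 441-456 change in the same limma fit, against 3850 of all 38457 contigs (10%). Most of the 75 were chosen for a called 412-452 change, so their share is a description of that choice. The signs were opposite in 23, and in 9 of these the 441-456 change was itself called the other way. Adjusted p-values of the difference follow.

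Among sugar genes they were 0.018 for CWINV2, 2.29e-05 and 7.54e-05 for the STP7 contigs Helianthus29820 and Helianthus29821, 2.94e-09 for the BAM1 contig and 8.82e-09 for the SBE2.1 contig. BAM1 changed by -2.73 and SBE2.1 by 6.08 between lines 441 and 456. For regulators and hormone or isoprenoid genes they were 0.0464 and 0.0108 for FIL (Helianthus11664 and Helianthus20543), 0.0491 for DXR, 3.1e-09 for RCAR1, 2.11e-06 for the AP2-domain contig and 0.00244 for the WRKY40 contig.

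Among transporters they were 2.2e-07 and 0.00253 for AAP7 (Helianthus25662 and Helianthus25655), 0.0348 for the boron transporter-like contig, 8.74e-06 for the MATE carrier and 7.09e-11 for the heavy-metal-domain contig, which changed by -8.65 between lines 441 and 456. For wall, flavonoid, stress and green-tissue genes they were 0.000202 for PME3, 0.0147 for PME2, 0.00022 for flavanone 3-hydroxylase, 0.00689 for the HSP20 contig Helianthus3522, 4.08e-08 for the peroxidase, 0.00298 for the FSD2 contig Helianthus30870 and 0.0265 for PSI-L.

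For protein turnover, signalling and trafficking contigs they were 3.1e-06 for the S-locus lectin kinase, 3.1e-05 for the aspartyl protease, 8.84e-08 for the RING/U-box protein, 4.8e-07 for the cysteine proteinase (4.89 between lines 441 and 456), 1.32e-09 for polyubiquitin 10, 7.66e-05 for OMT1, 2.21e-08 for the FKBP contig and 1.99e-08 for alpha-SNAP2. The remaining values were 4.1e-06 for Helianthus19317, 0.0331 for Helianthus33679, 1.8e-12 for Helianthus328, 1.9e-12 for Helianthus42290, 1.38e-05 for Helianthus28947 and 1.03e-06 for the copia-like contig Helianthus871.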

How the results depend on the processing

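Called contigs numbered 1751 higher and 674 lower in line 412 (382 and 170 also called in 441 against 456). With a mean of at least 50 there were 969 higher, with 193 and 112 shared. With the 6 samples alone, limma called 418 and 200, and with sample weights 1179 lower, with 603 and 336 shared. Summed by match, 330 and 173 were called, with 56 and 36 shared. Leaving out 1 sample gave 1078 to 3405 higher, 413 to 909 lower, and 266 to 593 and 128 to 233 shared. The most higher calls came without replicate 1 of line 452, and the fewest of each direction without replicate 2 of line 412. The other settings, including rescaling by median ratios with replicate 3 of line 452 left out (1531 and 849; chosen after seeing the data), stayed within 1.5 times. A replicate block gave 1702 and 657 calls (375 and 175 shared) over 21 samples and 21 and 16 over the 6 alone. Samples with the same number correlated by -0.30, 0.26 and -0.22, so the numbers do not pair them. Of the 75 contigs described, 74 kept their sign in every setting except the sums. In those settings 17 of the 75 also kept their result, called or not called. The 17 include nectar genes that were not called in the main fit, so fewer than 17 of the 68 called contigs kept their call throughout. SWEET9 turned to 0.06 without replicate 1 of line 412, 0.23 without replicate 1 of line 452 and 0.00 without replicate 2 of line 452, and its lowest value with 1 sample left out was -0.41, without replicate 3 of line 452. Summed by match, the sign turned for SBE2.1 (0.27), GI (0.29), LOX2 (0.18), polyubiquitin 10 (-0.44), the FSD2 contig Helianthus30870 (-1.58), the copia-like Helianthus871 (1.36) and WRKY40 (0.32), where other contigs of the match are in the sum. Depth limits contigs of a few units.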
